A study of Phoxinus septimaniae with 18 samples.

Results

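Genes whose assembled transcripts are annotated with 12 or more membrane-spanning segments were described in the brain, gills and liver of an invasive minnow (Phoxinus septimaniae x P. dragarum) living in a river salinized by potash mining. The genes are units of a de novo assembly by Trinity, and the segment count is a tag in the deposited identifiers. A gene was chosen when the highest segment count among its transcripts in any tissue table was 12 or more and its first protein hit was not coded TETTH, PARTE, HYPDU, DROME, CAEEL or CAPOW. These codes removed 0 genes. That gave 128 of 36271 genes. The rule would have kept the 250 with the highest tissue mean, but only 128 qualified, so the ranking by level excluded no gene. Level still acted through the listing, since each listed transcript reached 1 CPM in at least 2 of 6 libraries of a tissue. Of the 128 genes, 84 had 12 segments, just inside the limit, and 55 genes with 11 segments lay just outside it.

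The salt station, at 18.1 ppt, lay beside the potash mine that drains into the Llobregat River, and the reference station lay upstream at lower salinity. The salt groups were brain, gills and liver of fish caught at the salt station, and the reference groups were the same tissues of fish caught upstream, with 3 libraries in each of these 6 groups and 18 libraries in all. The comparison asks what sets the tissues of fish from saline water apart. All fish belonged to the same hybrid minnow, with age and sex not given in the sources used here. The series text counts 6 fish while the library codes hold 9 different fish codes. Fish were caught in the river, at 1 place per condition, so salinity cannot be told apart from any other feature of the 2 places. Total counts per library ran from 15200774 to 39881549.

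Proteins that cross the membrane about 12 times include many of the known solute carriers. These carry ions, amino acids, sugars, neurotransmitters or organic anions, often driven by the sodium gradient. Many of the ABC pumps, which spend ATP to export lipids, bile components and foreign compounds, belong to the same size class. In fish gills such carriers move sodium and chloride across the ionocytes. In liver they take up and excrete organic solutes, and in brain they clear transmitters from the synapse and feed neurons and glia. Other polytopic proteins, such as some receptors, cyclases and sterol sensors, can also reach this count.

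The label of transporter rests here on the segment tag alone. Each of the 128 genes had a protein hit, with 128 distinct first hits. The source code was DANRE for 110, FUGRU for 11, XENTR for 3, HOMSA for 2, COROL for 1 and MUSMU for 1. No gene symbol stands beside these accessions in the identifiers, so no gene is given a name or an individual role below, and the tissue labels could not be checked against marker genes. Every member also carried the signal peptide tag on its top transcript, as did 82.9% of all genes with a hit and 100% of the most counted genes with 4, 7 or 8 to 11 segments. Segment counts of 13 and 14 were found in 12 and 14 members, and 18 members had 15 or more. Gene identifiers are given below without their leading TRINITY_.

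The largest count was 30 segments in DN868_c1_g1 (hit ENSDARP00000101429). It averaged 57.2 ± 18.8 CPM in gills, 7.82 ± 4.80 CPM in brain and 3.25 ± 3.74 CPM in liver (SD, n = 6). Unless another scale is named, CPM is a count in proportion to the total count of its library. DN7296_c0_g1 (ENSDARP00000084404), with 20 segments, was listed in brain only, at 48.4 ± 15.8 CPM. Of the 4 members with 19 segments, DN2536_c1_g1 (ENSDARP00000024690) and DN137_c0_g1 (ENSDARP00000124309) were among the members with the most counts in brain. Of the 18 members with 15 or more segments, 13 were highest in brain, 5 in gills and 0 in liver, against 34, 34 and 16 of the 84 members with 12 segments. On the scale common to the tables, given below, the 18 members fell into 13, 3 and 2.

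Before any level is read, 1 gill library has to be set apart. Over the members, the library labelled salt 3 and reference 1 of the gills differed by a median chi-square of 1.36 per member, and 69 of 99 members (69.7%) lay within counting noise (a chi-square up to 3.841). In the other 14 gill pairs the median chi-square was 21.0 to 35.5 and 14.4% to 27.3% of members lay within noise. The remaining 30 members differed by more than noise, so both libraries were kept as separate samples. The share of each transcript in its member's counts, centred on the tissue, also marks the fish. Between tissues of the same fish code these shares correlated across transcripts with r from 0.455 to 0.829 in 10 pairs, against -0.523 to 0.422 in 86 pairs of different codes. For the library labelled salt 3, r was 0.132 (brain) and -0.0523 (liver) within its own code, and 0.358 (brain) and 0.353 (liver) with reference fish 1 (168 and 111 transcripts, which are not independent). The values with reference fish 1 lie within the range of different codes. The top of that range was gill reference 3 (code BC3A) with brain reference 3 (code BC3C). With liver reference 3, also BC3C, the r of gill reference 3 was 0.401. Every gill station difference below depends on the label of the library called salt 3. The counts of members at an unadjusted p under 0.05 and the gill members named for a station difference are also given without these libraries. Gill means with their SD, summed shares, counts without overlap and spreads within a station keep both. The n = 6 of the gills may therefore not stand for 6 separate fish.

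The members were listed more widely than genes at large. A transcript is in a tissue table only if it reached 1 CPM in at least 2 of the 6 libraries, so a gene missing from a table is not known to be at 0. In brain 115 members were listed, in gills 105 and in liver 90. A total of 74 members (57.8%) were in all 3 tables, against 32.6% of all genes and 49.5% of genes with a protein hit. Among the 250 genes with the most counts in other classes, the share was 64.8% for 8 to 11 segments, 39.6% for 7 segments and 54.0% for 4 segments. It was 70.4% for the 250 without a segment tag, whose median highest tissue mean was 1693 CPM. The median highest tissue mean was 54.1 CPM for members, 20.3 CPM for genes with a hit and 4.96 CPM for all genes. The median number of transcripts was 3, 2 and 1. The part of level and transcript number in the wider listing was not tested. Another 34 members were in 2 tables, 11 in brain only, 5 in gills only and 4 in liver only. Of the 5 in gills only, 2 had a DANRE hit. DN48474_c0_g1, DN181197_c0_g1, DN102053_c0_g1 and DN56505_c0_g1, all in gills only, shared a pattern. They had 0 counts in the library labelled salt 3 and in reference 1, and at most 4 in reference 3. Their listing thus rests on salt 1, salt 2 and reference 2, and the origin of these sequences was not tested.

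Members differed in level between tissues, and the size of that difference depends on the scale. Mean CPM was highest in brain for 58 members, in gills for 47 and in liver for 23. Liver held 17.97% of the members' highest means, against 7.77% over all genes and 8.64% over genes with a hit. Other genes with many segments were near the members, with 15.2% for the 250 most counted genes with 8 to 11 segments and 16.4% for the 55 genes with 11. Among the 250 most counted genes of other classes it was 4.8% for 7 segments, 7.2% for 4 segments and 30% without a segment tag. A high liver share is thus not particular to genes with many segments, and the part of level was not tested. Of the 108 members listed in at least 2 tables, 76 had a highest tissue mean over 2-fold above the next listed one, and 28 had one over 10-fold above, with 0.1 CPM added to each mean. Of these 28, 15 were highest in brain, 8 in gills and 5 in liver. The 20 members of a single table are left out of these counts. Among the 74 members in all tables the highest mean was a median of 6.93-fold above the lowest, and 6 members stayed within 2-fold and 24 within 4-fold. The tables were counted per tissue, and the liver totals are loaded by a single hit, so these levels across tissues are a description with no test. With that hit taken out of the totals, all 128 members kept their tissue of highest mean. With TMM factors over the 11818 genes in all tables, 110 members kept their tissue of highest mean, and the numbers became 54 in brain, 33 in gills and 41 in liver. On that common scale, in counts added after the data were seen, 15 of the 74 members stayed within 2-fold and 34 within 4-fold, and the median ratio was 4.43. There 69 of the 108 members were over 2-fold above the next listed tissue, and 32 over 10-fold, 16 of them in brain, 4 in gills and 12 in liver.

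**Figure D1:**
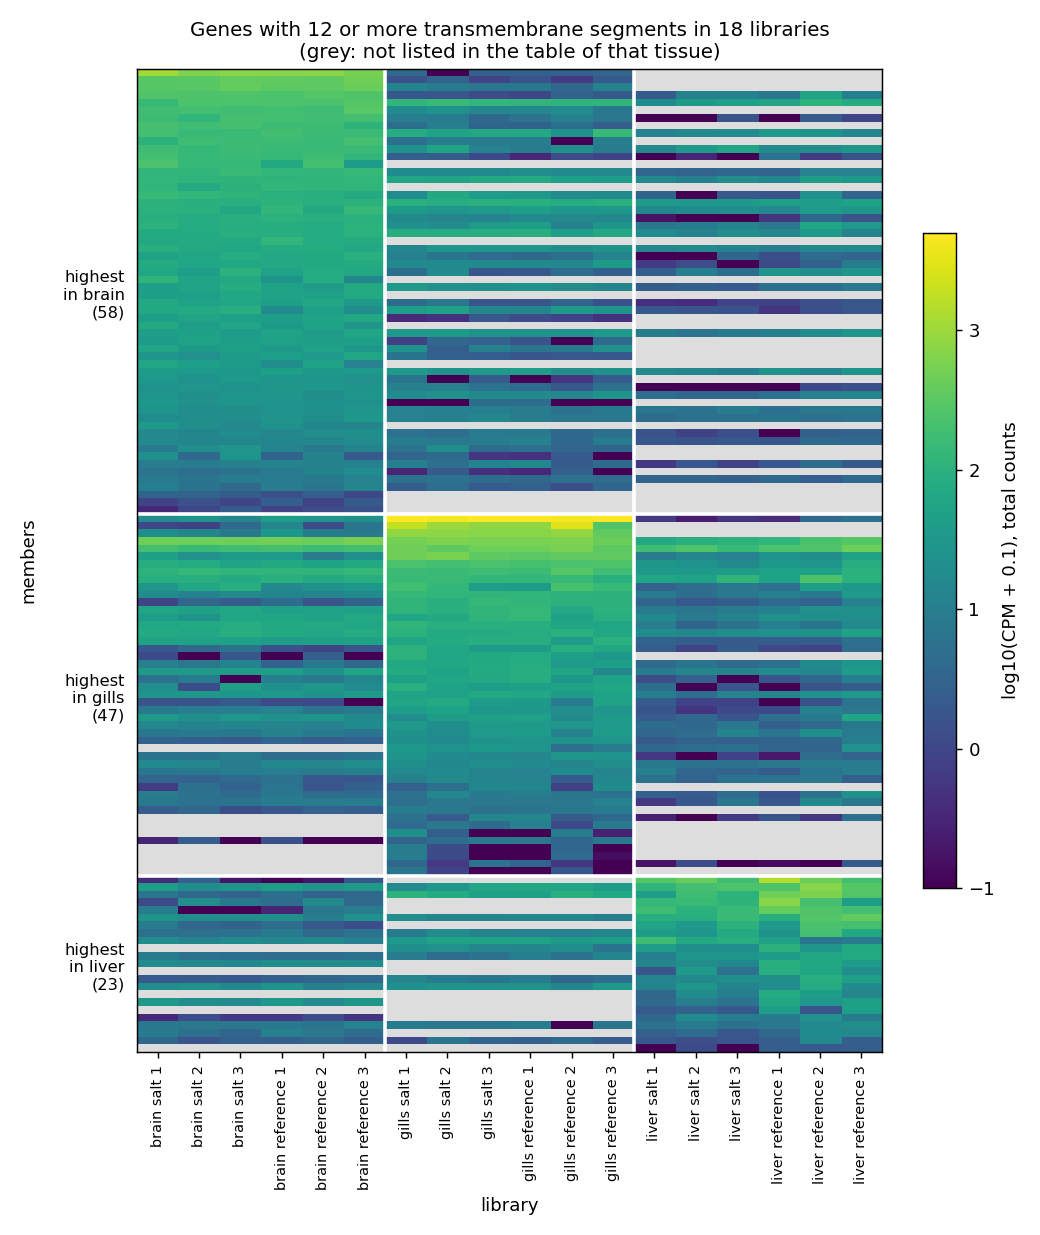
Level of each of the 128 members (rows, grouped by the tissue of highest mean and sorted by it) in each of the 18 libraries (columns), as log10 of CPM on total counts plus 0.1; grey marks a tissue table that does not list the gene. The 58 members highest in brain, 47 in gills and 23 in liver form 3 blocks, and the liver columns vary more between libraries than the brain columns do.

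A single gene made up much of the members' summed level in gills. On total counts the members summed to 11485 CPM in gills, 7270 CPM in brain and 3489 CPM in liver. On the common scale the sums were 11651, 8039 and 13281, so the order of gills and liver turns with the scale. The member with the most counts took 41.5% of that sum in gills, 10.5% in brain and 13.99% in liver, and the first 5 took 67.9%, 30.3% and 44.4%. The median listed member stood at 18.5 CPM in gills, 27.3 CPM in brain and 12.6 CPM in liver. The number of members at 100 CPM or more was 14 in gills, 21 in brain and 10 in liver, against 14, 23 and 24 on the common scale. CPM is not divided by transcript length, which the files do not give, so the order of members within a tissue is an order of counts and not of molecules.

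The gill gene was DN7662_c0_g1 (hit ENSDARP00000058869, 12 segments, 5 transcripts). It stood at 4830.5, 4261 and 5300.0 CPM in the gill libraries labelled salt 1, 2 and 3 and at 4978, 4295 and 4918 CPM in reference 1, 2 and 3. The stations overlapped, and the log2 fold change of salt over reference was -0.04 (SE 0.18; edgeR adjusted p = 1.00). The same gene averaged 25.9 ± 10.1 CPM in brain and 1.82 ± 2.34 CPM in liver (SD, n = 6). Its highest tissue mean was 2621 times its lowest on total counts and 926 times on the common scale, the widest range among the 74 members in all tables on both.

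The steady total of DN7662_c0_g1 was built from different transcripts in different fish. Its transcript i18 made 89.7%, 0% and 76.6% of the gene's counts in salt gills 1, 2 and 3, and 82.4%, 42.1% and 76.4% in reference gills 1, 2 and 3. Transcript i26 made 0%, 99.1% and 0% in the same salt gills, and 0%, 57.1% and 0.0328% in the reference gills. Both transcripts carry 12 segments. The gill library salt 2 thus held almost only i26 and reference 2 held both, while i18 led in the other 4.

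Other members with high gill counts varied more between fish. DN7233_c0_g1 (ENSDARP00000053520, 12 segments) stood at 1872, 1036 and 822 CPM in salt gills, against 843, 3041 and 263 CPM in reference gills. The reference range enclosed all salt values. In brain this gene averaged 4.59 ± 5.35 CPM, and the liver table does not list it. DN6114_c1_g1 (ENSDARP00000048027, 12 segments) stood at 879, 798 and 743 CPM in salt gills, against 741, 860 and 362 CPM in reference gills, and the stations overlapped. DN3160_c7_g1 (ENSDARP00000083168, 12 segments) averaged 404 ± 98.3 CPM in gills, 28.8 ± 12.8 CPM in brain and 22.3 ± 15.1 CPM in liver.

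A pair of members was high in every tissue. DN10935_c0_g2 (ENSDARP00000032730, 12 segments, 1 transcript) averaged 475 ± 37.3 CPM in brain, 555 ± 62.0 CPM in gills and 150 ± 85.1 CPM in liver (SD, n = 6). DN6307_c0_g2, a single transcript with 13 segments whose hit is coded FUGRU, averaged 184 ± 24.5 CPM in brain, 437 ± 86.7 CPM in gills and 256 ± 109 CPM in liver. In gills DN10935_c0_g2 had 522, 608 and 577 CPM in the salt libraries and 578, 600 and 444 CPM in the reference libraries, so its stations overlapped.

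In brain the counts were spread over more members. DN1655_c0_g1 (ENSDARP00000005281, 12 segments) stood at 1112, 658 and 761 CPM in salt brains, against 734, 770 and 535 CPM in reference brains. The stations overlapped, and the gills held 2.63 ± 1.42 CPM. DN2536_c1_g1 had 301, 311 and 381 CPM in salt brains, against 371, 336 and 475 CPM in reference brains, with 1.54 ± 0.885 CPM in gills. DN137_c0_g1 averaged 349 ± 57.9 CPM in brain and 8.49 ± 3.26 CPM in gills. The liver table lists none of these 3. DN10652_c0_g1 (ENSDARP00000072542, 15 segments) averaged 255 ± 16.1 CPM in brain, 1.75 ± 0.761 CPM in gills and 16.2 ± 19.1 CPM in liver. DN3652_c0_g1 (ENSDARP00000117758, 14 segments) averaged 222 ± 43.9 CPM in brain, but its transcripts with 12 or more segments made up only 2.74% of its brain counts.

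In liver the members with the most counts were uneven among reference fish. DN3118_c0_g2 (ENSDARP00000074898, 14 segments) stood at 291, 408 and 179 CPM in salt livers, against 1415, 438 and 198 CPM in reference livers. Only reference 1 stood apart, and the stations overlapped. DN6853_c0_g1 (ENSDARP00000064026, 14 segments) showed the same order of reference fish, at 137, 151 and 114 CPM in salt livers, against 720, 207 and 43.6 CPM in reference livers. DN112_c3_g1 (ENSDARP00000025026, 12 segments) was highest in another fish, with 119, 194 and 232 CPM in salt livers, against 257, 716 and 292 CPM in reference livers. DN101_c0_g2 (ENSDARP00000091545, 12 segments) had 43.8, 177 and 110 CPM in salt livers, against 451, 581 and 280 CPM in reference livers. DN5400_c0_g1 (ENSDARP00000073704, 12 segments) had 175, 103 and 153 CPM in salt livers, against 395, 255 and 201 CPM in reference livers. On total counts, the stations did not overlap for DN112_c3_g1, DN101_c0_g2 and DN5400_c0_g1. The share of all liver genes without overlap on total counts is not given here. Over all liver genes tested, the median log2 fold change of salt over reference without scaling was -0.98. With TMM-scaled library sizes the stations overlapped for all 3, and no edgeR adjusted p was below 0.818.

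**Figure D2:**
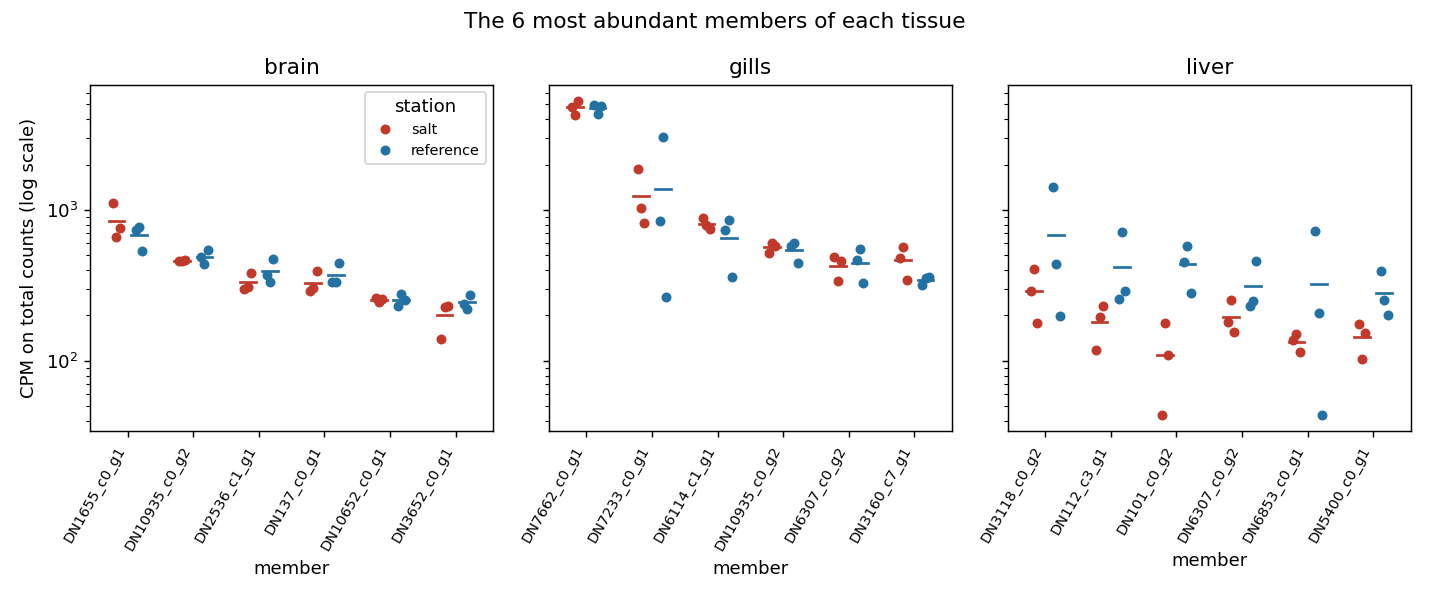
CPM on total counts (log axis) of the 6 members with the highest mean in each tissue, with 3 salt libraries (red, left) and 3 reference libraries (blue, right) per member and a line at each mean. The gill gene DN7662_c0_g1 lies between 4261 and 5300.0 CPM in all 6 libraries, whereas DN3118_c0_g2 spans 179 to 1415 CPM in liver.

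The members with the largest mean over the next tissue, among those with a mean of at least 50 counts per library, were picked with unlisted tissues put at 0. Members of a single table thus come first by construction, and that a member is listed in 1 tissue does not show its absence elsewhere. In brain these were DN12764_c0_g2 at 138 ± 74.6 CPM, DN4521_c0_g1 at 112 ± 20.3 CPM, DN9412_c0_g1 at 84.0 ± 20.1 CPM, DN11356_c1_g1 at 61.5 ± 38.1 CPM and DN715_c1_g1 at 55.2 ± 11.2 CPM (SD, n = 6), all listed in brain alone. DN12764_c0_g2 had 238, 142 and 140 CPM in salt brains, against 72.8, 197 and 37.5 CPM in reference brains, and the stations overlapped. The corresponding gill members after DN7662_c0_g1 and DN7233_c0_g1 were DN9402_c0_g1 at 65.1 ± 26.0 CPM, DN18296_c0_g1 at 6.13 ± 3.53 CPM and DN48474_c0_g1 at 5.74 ± 8.81 CPM. The last of these had 22.1, 2.60 and 0 CPM in the gills labelled salt, against 0, 9.60 and 0.166 CPM in reference gills, so its mean rests on 2 libraries. In liver the list held DN3118_c0_g2, DN5400_c0_g1, DN1978_c3_g1 at 34.98 ± 33.5 CPM, DN9202_c0_g1 at 27.4 ± 27.5 CPM and DN5797_c0_g1 at 16.1 ± 21.6 CPM, the last 3 listed in liver alone. DN5797_c0_g1 stood at 2.03, 2.93 and 1.85 CPM in salt livers, against 42.8, 1.66 and 45.2 CPM in reference livers.

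At the other end stood the most even members, and which members these are depends on the scale. On total counts the highest tissue mean was 1.33 times the lowest for DN6008_c1_g4, 1.41 times for DN35098_c0_g1, 1.45 times for DN6440_c0_g1 and 1.54 times for DN14339_c0_g1. On the common scale these ratios were 2.60, 3.33, 5.08 and 4.2, and the most even member was DN10935_c0_g2, at 1.07 times, against 3.696 times on total counts. DN14339_c0_g1 (ENSDARP00000094372) had the highest levels of these, at 85.1 ± 9.28 CPM in brain, 131 ± 22.8 CPM in gills and 104 ± 72.8 CPM in liver. At the bottom of the list, DN2831_c1_g1 reached a mean of 1.30 CPM in liver and DN54061_c0_g1 a mean of 1.09 CPM in brain.

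There were 18 members in 9 pairs with the same DN number in their Trinity identifiers. Partners share the component (the c number) as well, except DN112_c3_g1 and DN112_c2_g3, which lie in different components. Genes of a component share sequence, and reads of near-identical stretches may have been split between partners. The tissue of highest mean was the same in 6 pairs and different in 3, or the same in 5 and different in 4 on the common scale. The 3 pairs that differed on total counts are given here, followed by a pair that shared gills. DN2475_c0_g2 averaged 20.3 CPM in brain, 14.7 CPM in gills and 176 CPM in liver, while its partner DN2475_c0_g3 averaged 53.5, 30.9 and 1.40 CPM. DN112_c3_g1 was highest in liver at 301 CPM, while DN112_c2_g3 averaged 53.0 CPM in brain, 103 CPM in gills and 13.9 CPM in liver. DN1116_c0_g2 was highest in brain at 169 CPM, with 73.8 CPM in gills and 20.7 CPM in liver, while DN1116_c0_g1 averaged 16.9 CPM in gills and 47.8 CPM in liver. DN6008_c1_g2 averaged 112 CPM in gills, 2.57 CPM in brain and 4.26 CPM in liver, while its partner DN6008_c1_g4 averaged 7.79 CPM in gills, 7.79 CPM in brain and 5.87 CPM in liver, so the tissue of its highest mean is nominal.

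The summed counts of a member can hold transcripts that do not themselves reach 12 segments. The members comprised 479 transcripts, of which 264 had 12 or more. In the tissue of highest mean these carried a median of 94.7% of a member's counts. They carried all counts in 52 members and at most 50% in 22. The smallest shares were 2.74% in DN3652_c0_g1, 15.8% in DN715_c1_g1, 21.1% in DN82_c0_g1 and 22.6% in DN2868_c0_g1. A single transcript made up 24 members, and 30 members had transcripts with different first hits.

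The shares of a member's transcripts in its counts varied widely between libraries. Transcripts are assembled sequences, so use of a transcript cannot be told apart here from sequence differences between fish. Among members with several transcripts and enough counts (50 or more in each library), the share of some transcript ranged over more than 50 percentage points between libraries in 36 of 78 members in brain, 31 of 60 in gills and 25 of 51 in liver. In DN14339_c0_g1, transcript i1 made 57.9%, 40.7% and 100% of the counts in salt brains, against 99.1%, 100% and 0% in reference brains. In liver the same transcript made 72.2%, 37.4% and 100% in salt fish, against 100%, 100% and 0% in reference fish. The livers come from the same fish codes as the brains, and fish high or low in one tissue were so in the other. Sums per gene were used in all tests because of this spread.

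On total counts, the members' summed share did not separate the stations in brain or gills and was lower at the salt station in liver. In brain the members made up 0.734 ± 0.0538% of counts in salt libraries and 0.720 ± 0.0188% in reference libraries (SD, n = 3). In gills they made up 1.17 ± 0.0897% in libraries labelled salt and 1.12 ± 0.141% in reference libraries. In liver they made up 0.200%, 0.232% and 0.227% in salt libraries, against 0.503%, 0.515% and 0.416% in reference libraries, so the stations did not overlap and the means were 0.220 ± 0.0172% and 0.478 ± 0.0536%.

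A single protein hit outside the members took much of the liver counts. It took 40.9%, 42.6% and 33.2% of all counts in salt livers, against 28.9%, 0.000151% and 0.000164% in reference livers. With that hit taken out of the totals, the members made up 0.361 ± 0.0375% in salt livers and 0.546 ± 0.148% in reference livers, and the difference was -0.186 percentage points, against -0.258 on all counts. The stations still did not overlap, at 0.339% to 0.404% in salt livers and 0.416% to 0.708% in reference livers. Reference 1, with 28.9% of its counts on the hit, held 0.503% on all counts, beside the other reference livers. The TMM factors also differed between the stations, at 0.679 to 0.783 in salt livers and 1.03 to 1.75 in reference livers. Reference 2 and 3, with almost no counts on the hit, had the highest factors, 1.37 and 1.75. The part of the hit in these factors was not tested. Divided by the TMM factors, the share on all counts rises in salt livers and falls in reference livers. Reference 3 then lies below all salt livers, so the lower share at the salt station depends on the scale. A share over chosen members is a description and has no p-value. In bulk tissue, fewer cells of a type and less RNA per cell cannot be told apart.

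**Figure D3:**
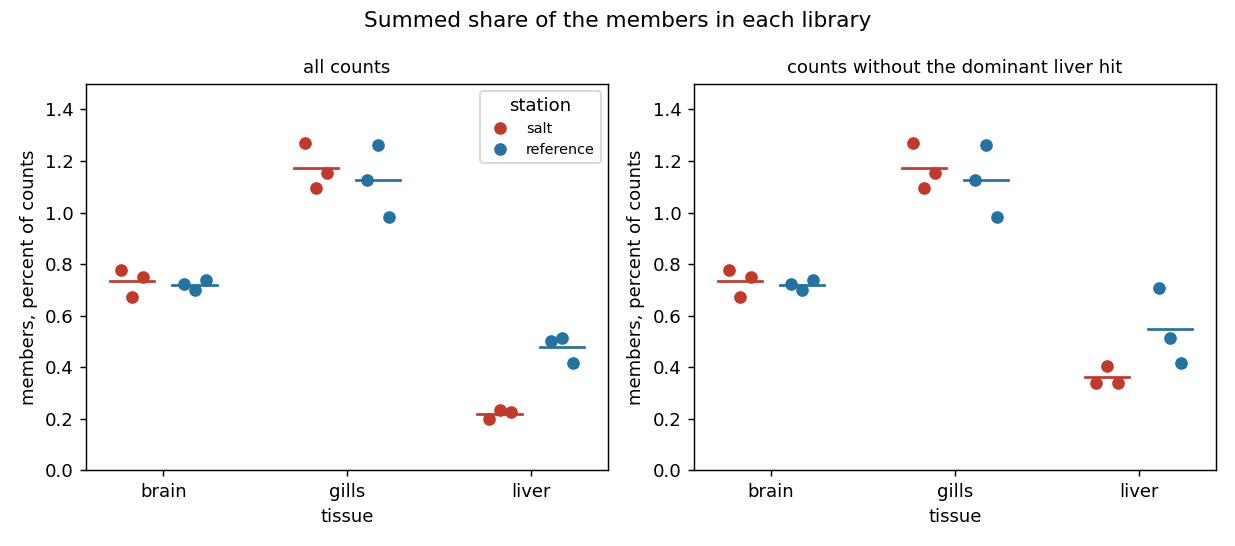
Percent of a library's counts on the 128 members, with 3 salt libraries (red, left) and 3 reference libraries (blue, right) per tissue and a line at each mean, on all counts (left panel) and without the hit that dominates liver (right panel). Salt livers lie at 0.200% to 0.232% and reference livers at 0.416% to 0.515% on all counts, and without the hit they lie at 0.339% to 0.404% and 0.416% to 0.708%.

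Station differences of single members were then tested with edgeR on the gene sums of each tissue, over all genes of that tissue. In no tissue did a member pass an adjusted p of 0.05. edgeR tested 113 members of the brain table, 103 of the gill table and 88 of the liver table, and the smallest adjusted p was 0.580, 1.00 and 0.736. The background was the same, with 0% of 26930 genes in brain, 0% of 22958 in gills and 0% of 14343 in liver. With 3 libraries per station only large effects could pass: on simulated counts edgeR recovered 43%, 23% and 5% of 4-fold changes and 89%, 61% and 64% of 16-fold changes in brain, gills and liver. Differences between stations are given as log2 fold changes of salt over reference, and levels are CPM on TMM-scaled library sizes (scaled CPM).

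In brain, 4 members were higher and 4 lower at the salt station at an unadjusted p under 0.05, where 3.01% and 3.4% of all genes were. All 3 salt values lay above all reference values in 6 members, and below them in 7, against 5.75% and 7.75% of all genes. DESeq2, as an alternative, called 1 member higher and 1 lower at an adjusted p under 0.05, against 1.31% of genes. The median log2 fold change was -0.06 over the members and 0.00 over all genes. All these shares lie near the background. Without brain reference 2, the number at an unadjusted p under 0.05 was 16, against 8 with all libraries. The share of all genes in that refit is not given here, so the rise cannot be assigned to the members.

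The member called higher by DESeq2 in brain was DN2475_c0_g3 (ENSDARP00000082351, 14 segments, 1 transcript). It stood at 68.8, 75.2 and 90.03 scaled CPM in salt brains, against 18.7, 48.7 and 21.5 in reference brains. The lowest salt brain was above the highest reference brain, and the log2 fold change was 1.40 (SE 0.39; edgeR adjusted p = 0.696, DESeq2 adjusted p = 0.0280). In liver, at a low level, it stood at 2.34, 2.46 and 1.89 scaled CPM in salt fish, against 0.388, 0.932 and 1.02 in reference fish, which come from the same fish codes as the brains. The liver log2 fold change was 1.51 (SE 0.54, edgeR adjusted p = 0.754). On total counts the liver stations overlapped, at 1.83, 1.67 and 1.44 CPM in salt fish and 0.399, 1.27 and 1.77 CPM in reference fish. In gills the stations overlapped, with a log2 fold change of 0.43 (SE 0.54). Its partner DN2475_c0_g2 overlapped between stations in all 3 tissues.

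The member called lower was DN11947_c1_g1 (ENSDARP00000089905, 18 segments), tested in brain alone (its gill mean was 0.919 CPM). It stood at 5.85, 5.09 and 5.51 scaled CPM in salt brains, against 8.51, 14.3 and 18.4 in reference brains. The log2 fold change was -1.32 (SE 0.31; edgeR adjusted p = 0.580, DESeq2 adjusted p = 0.0209). Salt brains lay close together (SD 0.377), whereas reference brains had an SD of 4.96.

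The other brain members named by the rule were lower in count or in effect. DN870_c0_g1 averaged 126 ± 12.7 scaled CPM in salt brains and 88.7 ± 13.8 in reference brains. Its log2 fold change was 0.50 (SE 0.15; edgeR adjusted p = 0.734). Counted over its transcripts with 12 or more segments alone, which hold 27.7% of its brain counts, the log2 fold change turned to -0.13. DN10645_c0_g1 had 1.77, 3.80 and 6.24 scaled CPM in salt brains, against 1.41, 0.888 and 1.51 in reference brains. DN4146_c0_g2 had a log2 fold change of 0.50 over all transcripts and -1.25 over those with 12 or more segments. Lower values at the salt station were seen in DN1955_c0_g1 (-0.77, SE 0.28), DN1002_c0_g2 (-0.41, SE 0.16) and DN6008_c1_g4 (-0.44, SE 0.19), with edgeR adjusted p-values from 0.763 to 0.790.

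In gills, 0 members were at an unadjusted p under 0.05 in either direction, where 0.588% of all genes were higher and 0.462% lower. No overlap between stations was seen in 4 members above and 2 below, against 2.95% and 3.27% of genes. DESeq2 called 0 members and 0% of genes. The median log2 fold change was 0.10 over members and 0.03 over all genes, and 67 members were positive and 36 negative, where 52.4% of all genes were positive. The members' median was 0.261 without reference 1, 0.221 without both of the matching libraries and 0.0483 without reference 2, where 56 members were positive and 48 negative. The library labelled salt 3 and reference 1, which match each other, stand on opposite sides of this test. Without the library labelled salt 3 the number at an unadjusted p under 0.05 was 4, without reference 1 it was 5, and without both it was 2. None passed the adjusted threshold, and the shares of all genes in these refits are not given here. The codes of the other 2 reference gills hold an A in the place of the C of every other reference code, with no statement of what it marks. Without reference 1, that mark cannot be told apart from the station.

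The gill member with the smallest p was DN51972_c0_g1 (ENSDARP00000008096, 12 segments, 7 transcripts). It stood at 11.3, 10.5 and 5.49 scaled CPM in the libraries labelled salt, against 4.42, 2.07 and 5.13 in reference gills. The library labelled salt 3 was next to the reference values. The log2 fold change was 1.23 (SE 0.52; edgeR adjusted p = 1.00) with all libraries and 1.59 without salt 3 and reference 1. DN1002_c0_g2 averaged 12.5 ± 1.55 scaled CPM in the libraries labelled salt and 8.46 ± 1.46 in reference gills, a log2 fold change of 0.56, and 0.60 without both libraries. DN8758_c3_g1 (ENSDARP00000019390) had a log2 fold change of 0.49, and 0.75 without both. DN4841_c0_g1 had 6.88, 2.64 and 2.35 scaled CPM, against 1.73, 2.15 and 1.80, so its mean rests on salt 1, without which the log2 fold change was 0.40 in place of 1.06; without both matching libraries it was 1.26. DN535_c0_g2 (-0.34) and DN6008_c1_g4 (-0.44) lay below, and both kept that sign without the matching libraries (-0.41 and -0.61).

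In liver, 6 members were higher and 5 lower at the salt station at an unadjusted p under 0.05, where 3.1% and 3.28% of all genes were. No overlap was seen in 7 members above and 4 below, against 7% and 6.92% of genes. DESeq2 called 1 member higher and 0 lower, against 1.46% of genes. The median log2 fold change was -0.33 over the members and -0.09 over all genes, with 30 members positive and 58 negative, where 43.9% of all genes were positive. Of the 23 members highest in liver on total counts, 21 were negative, with a median of -0.58. Without reference 2 that number was 16, without reference 1 it was 17 and with the replicate block 17. These 23 were picked by liver means that include the reference livers, so members high in reference livers alone could enter. The share among all genes highest in liver is not given here, and nothing is concluded from this count. On total counts without TMM factors, the median over all genes shifted to -0.98 and that of the members to -1.23. In that fit 7 members were positive and 81 negative, and 1 was higher and 28 lower at an unadjusted p under 0.05. The shares of all genes in that fit are not given here, so these counts are no result about the members. The members' median minus that of all genes was -0.243 with TMM factors and -0.255 without them. It rests on single libraries: it was -0.0608 without salt 1, -0.0815 without reference 2 and -0.350 without reference 1, and -0.161 with the replicate block. Without liver reference 1 the number at an unadjusted p under 0.05 was 17, and without salt 3 it was 5, against 11 with all libraries. Shares of all genes in these refits are not given here.

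DN8758_c3_g1 (ENSDARP00000019390, 12 segments, 1 transcript) was the liver member called by DESeq2. It stood at 8.81, 8.70 and 12.6 scaled CPM in salt livers, against 5.01, 5.17 and 4.34 in reference livers. All salt livers were above all reference livers, and the log2 fold change was 1.05 (SE 0.28; edgeR adjusted p = 0.736, DESeq2 adjusted p = 0.0379). On total counts it was 0.18, where the median over all genes was -0.98, and the liver stations overlapped. In gills the salt values were also above the reference values, narrowly, and in brain the stations overlapped (-0.12, SE 0.16).

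The largest higher value in liver was in DN12025_c0_g1 (ENSDARP00000034147, 14 segments, 6 transcripts). It stood at 217, 104 and 118 scaled CPM in salt livers, against 49.0, 4.97 and 4.71 in reference livers. Reference 1, the reference liver with 28.9% of its counts on the dominant hit, lay closest to the salt livers; the part of that hit in the result was not tested. The log2 fold change was 2.91 (SE 1.04; edgeR adjusted p = 0.754), and it was 4.96 without reference 1. In brain (0.21, SE 0.28) and gills (0.07, SE 0.26) its stations overlapped. DN13604_c0_g1 (ENSDARP00000043726, 14 segments) had 21.0, 50.9 and 79.6 scaled CPM in salt livers, against 15.6, 14.8 and 17.5 in reference livers, a log2 fold change of 1.66 (SE 0.49). DN1382_c2_g1 averaged 19.7 ± 4.16 scaled CPM in salt livers and 10.4 ± 1.84 in reference livers, a log2 fold change of 0.92 (SE 0.27) that was 0.00 on total counts.

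Lower liver values were seen in DN12877_c0_g1 (ENSDARP00000118758, 12 segments), at 5.16, 15.3 and 8.04 scaled CPM in salt livers, against 60.9, 21.2 and 26.7 in reference livers. The log2 fold change was -1.94 (SE 0.58; edgeR adjusted p = 0.736). DN2255_c4_g1 had 2.69, 5.31 and 2.20 scaled CPM in salt livers, against 5.36, 6.32 and 35.004 in reference livers. Its log2 fold change of -2.20 (SE 0.84) was -0.79 without reference 3.

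**Figure D4:**
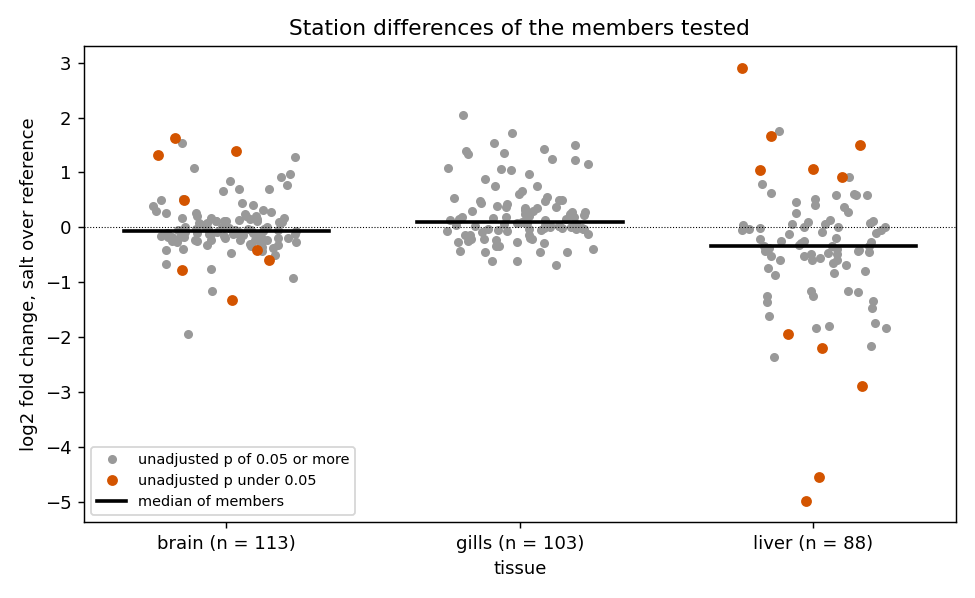
Log2 fold change of salt over reference (edgeR, TMM factors) for each member tested in brain (113), gills (103) and liver (88), with members at an unadjusted p under 0.05 in orange and a black line at the members' median. Medians lie at -0.06, 0.10 and -0.33, and no member passed the adjusted threshold.

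**Figure D5:**
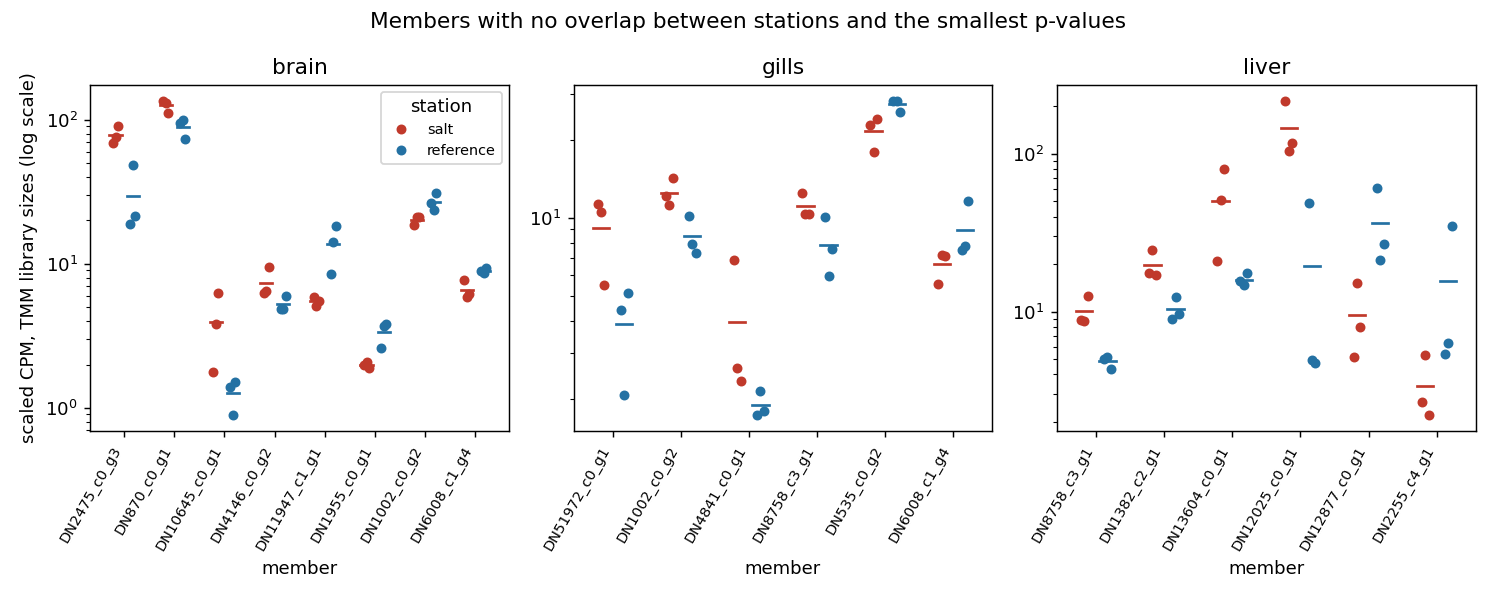
Scaled CPM (log axis) in each library for members with no overlap between stations, up to 4 in each direction with the smallest p in each tissue, with salt libraries (red, left), reference libraries (blue, right) and a line at each mean. DN12025_c0_g1 in liver shows the widest gap between means, with reference 1 at 49.0 scaled CPM near the salt values.

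Within each station, the spread of the members' CPM on total counts was larger in liver than in the other tissues. The TMM factors of the reference livers ran from 1.03 to 1.75, and their part in this spread was not tested. The ratio of the highest to the lowest library had a median over members of 1.38 in salt and 1.47 in reference brains, of 1.63 in salt and 1.95 in reference gills, and of 1.86 in salt and 2.86 in reference livers. These ratios cover members with a mean of at least 50 counts. They leave out members with 0 in a library, which were 6 of 80 in salt livers and 2 of 80 in reference livers. A ratio over 3-fold was seen in 38 members in reference livers, against 15 in salt livers. The median biological coefficient of variation estimated by edgeR for the members was 0.288 (brain), 0.464 (gills) and 0.537 (liver), against 0.383, 0.583 and 0.518 over all genes.

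Whether the station difference itself differed between tissues was tested in the 74 members and 11818 genes present in all tables. The edgeR contrasts called 0 members in each of the 3 comparisons, against 0% of genes for gills minus brain, 0.0846% for liver minus brain and 0.118% for liver minus gills. At an unadjusted p under 0.05 there were 2, 15 and 12 members, against 1.96%, 7.98% and 9.76% of genes. With limma and the fish code as a block, 1 member was called for liver minus brain and 0 for the other contrasts, against 0.135% of genes for liver minus brain, 0.00846% for gills minus brain and 0.228% for liver minus gills. These contrasts are set across tables that were counted separately. They also depend on liver reference 1: without it, edgeR called 3 members for liver minus brain, among 144 genes called, and 5 for liver minus gills, among 208. DN1002_c0_g3, DN51972_c0_g1 and DN12025_c0_g1 were called in both, with differences of -5.22, -8.60 and 4.66 from brain, and DN7662_c0_g1 (-2.64) and DN19908_c0_g1 (-2.92) in the second alone. Without liver salt 3, edgeR called DN1718_c0_g1 in both contrasts, and without liver salt 1 it called DN1002_c0_g3 in both.

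The member called by limma was DN1002_c0_g3 (ENSDARP00000002111, 12 segments). In brain it stood at 86.0, 83.3 and 90.1 scaled CPM in salt fish, against 97.3, 95.1 and 97.2 in reference fish. In liver it had only 3, 0 and 0 counts in salt fish, against 12, 119 and 47 counts in reference fish. The summed salt count was 0.0169 of the reference count after division by the library totals (95% exact interval 0.00345 to 0.0502, counting error only). That ratio was not computed on TMM-scaled library sizes, whose factors in the liver fit were lower in salt than in reference livers. The difference of the log2 fold changes, liver minus brain, was -4.77 (SE 0.94; edgeR adjusted p = 0.0966) and -4.95 with limma (adjusted p = 0.0478); with so few counts the fitted size depends on the prior count. Liver minus gills gave -4.67 (edgeR adjusted p = 0.0957). Over the alternatives run, the edgeR adjusted p for liver minus brain lay between 0.00297 and 0.244.

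DN51972_c0_g1 followed in the order of p. Its liver counts were 0 in all 3 salt fish, against 0, 35 and 41 in reference fish, so the stations overlapped at 0. Summed over each group and divided by the library totals without TMM factors, a floor of 3 salt counts lay 25.2-fold below the reference count. That ratio covers counting error only and sets no limit on the spread between fish. It was not computed on TMM-scaled library sizes. The difference from gills had an edgeR adjusted p of 0.161 and that from brain 0.299. For gills minus brain the smallest p-values were those of DN1002_c0_g2, with a difference of 0.97 (SE 0.36), and DN1955_c0_g1, with 1.42 (SE 0.62), both at an edgeR adjusted p of 1.00. DN1002_c0_g2 shares its component with DN1002_c0_g3, and in liver it averaged 5.58 ± 0.783 CPM over all 6 libraries with overlapping stations.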

How the data were processed

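RNA of 18 libraries (3 tissues, 2 stations, 3 libraries each) was extracted with a column kit and prepared with TruSeq, per the labels' protocols. The authors deposited 1 table per tissue with unnormalized counts for each Trinity transcript. The submitters' processing notes name Trimmomatic and DESeq2, with aligner and counting tool not given in the sources used here. Each transcript reached 1 CPM in at least 2 of 6 libraries, as checked on the deposited counts. Groups come from the sample titles and columns from the library codes; 0 per-sample columns were left out.

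Counts were summed per Trinity gene. Tissues were fitted separately in edgeR 4.0.16 (R 4.3.3; filterByExpr, TMM, two-sided quasi-likelihood F test), and p-values were adjusted by Benjamini-Hochberg over all genes of the tissue. The standard error is the log2 fold change divided by the square root of F. Tissue contrasts used edgeR over all libraries, with limma 3.58.1 and a fish-code block as alternative; DESeq2 1.42.0 was another alternative. Titles call the libraries biological replicates; p-values measure the spread between these libraries. edgeR was also tested on simulated counts of 26283, 21508 and 14036 genes, with 7, 13 and 3 false calls. The 4-fold and 16-fold changes were placed in genes with a mean of at least 50 counts.

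The members and lists were chosen with earlier results of these data known. Members were named by rule: per tissue the 6 highest means, the 5 most restricted and the 4 smallest p in each direction without overlap (mean of at least 50 counts), the 2 smallest p per tissue contrast, the 4 most even and the 3 with most segments. Marker and carrier lists were written as symbols and matched 0 identifiers. Floors and intervals cover counting error only.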

Additional observations from a re-analysis of the deposited data

Results flagged for a closer look

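DN1002_c0_g3 is singled out because its station effect differed between liver and brain in limma's fit with the fish code as a block, by -4.95 on the log2 scale (adjusted p = 0.0478), while edgeR gave -4.77 (adjusted p = 0.0966). Its liver counts were 3, 0 and 0 in salt fish, against 12, 119 and 47 in reference fish, so all 3 salt livers lay below all 3 reference livers, on few counts. Without liver salt 1, liver reference 1 or liver reference 2, edgeR's adjusted p for liver minus brain was 0.0379, 0.00297 and 0.0498; without any other single library it was 0.0692 to 0.244.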

How the results depend on the processing

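No member passed edgeR's adjusted threshold within a tissue under any alternative run (DESeq2 size factors, no scaling, no filter, sums per first hit, each library left out, the replicate block, and, added after seeing the data, only transcripts with 12 or more segments). DESeq2 called 2 members in brain and 1 in liver. At an unadjusted p under 0.05, brain gave 2 members with sums per first hit and 5 to 16 with single libraries left out, against 8. Gills gave 1 with DESeq2, 0 to 5 with single libraries left out and 2 without both reference 1 and the library labelled salt 3, against 0. Liver gave 29 without scaling and 5 to 17 with single libraries left out, against 11. Shares of all genes at an unadjusted p under 0.05 are not given for the alternatives, so these shifts cannot be assigned to the members.

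The replicate block gave 1 member in gills and 7 in liver at an unadjusted p under 0.05. Same-numbered libraries deviated together in no tissue in every pair (r -0.0764, -0.0925 and 0.0353 in brain; -0.366, 0.210 and -0.00315 in gills; 0.0420, -0.00752 and 0.0360 in liver), so the numbers do not pair fish.

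The liver share difference was -0.186 percentage points without the dominant hit. For liver minus brain, limma called 1 member, and edgeR called 0 to 3 with single libraries left out (3 without liver reference 1). For liver minus gills it called 0 to 5 (5 without liver reference 1). Scaling over common genes put 41 members highest in liver, against 23. Brain log2 fold changes reversed over transcripts with 12 or more segments in DN870_c0_g1 (-0.13) and DN4146_c0_g2 (-1.25). The causes were not tested. The choice of the 128 members was the same under each alternative. Leaving out liver reference 2 and 3 together was not run.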
